A study of Mus musculus with 12 samples.

Results

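Glycolysis splits glucose into pyruvate and yields ATP without oxygen, and macrophages lean on it when Toll-like receptors are engaged. Glucose enters through carriers of the Slc2a family, hexokinase traps it as a phosphate ester, and phosphofructokinase, tuned by the Pfkfb enzymes, commits it to breakdown. Pyruvate is then burned in mitochondria or turned into lactate, which leaves through carriers of the Slc16a family. The transcription factor HIF-1 activates many of these genes. Its alpha subunit, Hif1a, is marked for destruction by the Egln prolyl hydroxylases while oxygen is present, and in macrophages its gene is also switched on by inflammatory signals.

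The genes described here are 38 names covering glucose transport, every step of glycolysis, the fate of pyruvate and lactate, oxygen sensing and genes induced by low oxygen. They were chosen by name, as array rows assigned to exactly that gene, with the brightest row taken where a gene had several. Of these, 33 had a row of their own among 22180 genes with one, and 31 of these were among the 14079 genes that passed the filter on dim signal. Gpi1, Aldoa, Eno1, Ankrd37 and Ero1l had no row under exactly that name alone, so their values are not given under the rule. Ero1l is listed under its current symbol, Ero1a, and is given outside it. Ldhb, a lactate dehydrogenase subunit, and Egln3, a HIF prolyl hydroxylase, lay between 3.63 and 4.34 on the log2 scale on all 12 arrays and were not tested. Of the 31 tested genes, 30 exceeded the dim-signal limit on all 12 arrays, the exception being the glucose carrier Slc2a3.

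RNA came from mouse bone marrow-derived macrophages grown with medium conditioned by L929 cells, a fibroblast line that secretes the growth factor M-CSF, and was read on Affymetrix Mouse Gene 2.1 ST arrays. There were 4 groups of 3 arrays: Rasgef1b fl/fl Vav-iCre knockout cells with R848 for 4 h, wild-type cells with R848 for 4 h, knockout cells with saline, and wild-type cells with saline. R848 is a small agonist of the endosomal receptor TLR7, and Rasgef1b is an exchange factor that activates small GTPases of the Ras family. Vav-iCre acts in blood-forming cells. Neither an age nor the duration of saline is given in the labels. No Cre-only group is named, so loss of Rasgef1b cannot be told apart from what Cre itself may do. Values are log2 intensities after RMA, between 2.15 and 12.85, and a difference of 1 is a 2-fold change. A level of a gene is comparable across arrays, not with the level of another gene. Within a group, correlations between arrays over the tested genes ran from 0.9909 to 0.9964. Rasgef1b itself stood at 9.45, 8.60 and 9.36 in knockout cells and 9.84, 9.84 and 9.69 in wild-type cells with R848, and at 8.63, 7.88 and 8.72 in knockout and 9.03, 9.19 and 9.14 in wild-type cells with saline. Signal thus remained in the knockout, and whether this row's probes lie in the deleted part is not given in the sources used here. Averaged over treatments, Rasgef1b was lower in the knockout by a log2 difference of -0.68 ± 0.15 (SE, limma adjusted p = 0.036). That call was lost when any of the 6 wild-type arrays or replicate 2 of either knockout group was left out (adjusted p 0.0502 to 0.098), and with arrays of the same genotype and number treated as correlated pairs (0.054). All 8 macrophage markers examined were detected, and Rasgef1b's chromosome, 5, holds 0 of the 33 genes.

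HIF-1 binds a short core, ACGTG or GCGTG, in the control regions of its targets. The promoters shown here are those of the genes whose R848 response exceeded 1 on the log2 scale in both genotypes and of the genes called between genotypes with saline. Each runs from 250 bases before to 50 after a gene start, 5′ to 3′ on the gene's strand, from RefSeq annotation of GRCm38.p6. Capitals mark ACGTG or GCGTG on either strand.
Pfkfb3 (chr2:11553880-11554179, minus strand): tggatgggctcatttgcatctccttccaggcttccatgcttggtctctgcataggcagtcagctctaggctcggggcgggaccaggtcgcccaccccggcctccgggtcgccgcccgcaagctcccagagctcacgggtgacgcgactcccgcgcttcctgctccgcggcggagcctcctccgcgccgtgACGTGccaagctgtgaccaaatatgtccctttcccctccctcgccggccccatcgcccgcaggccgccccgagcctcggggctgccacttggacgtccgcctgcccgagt
Slc2a6 (chr2:27027949-27028248, minus strand): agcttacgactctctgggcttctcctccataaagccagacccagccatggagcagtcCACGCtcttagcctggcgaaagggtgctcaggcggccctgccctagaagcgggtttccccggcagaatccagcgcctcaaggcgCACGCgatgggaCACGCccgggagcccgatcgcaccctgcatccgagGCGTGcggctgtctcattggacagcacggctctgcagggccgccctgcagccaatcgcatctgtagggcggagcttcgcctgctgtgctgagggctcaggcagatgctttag
Slc2a1 (chr4:119108495-119108794, plus strand): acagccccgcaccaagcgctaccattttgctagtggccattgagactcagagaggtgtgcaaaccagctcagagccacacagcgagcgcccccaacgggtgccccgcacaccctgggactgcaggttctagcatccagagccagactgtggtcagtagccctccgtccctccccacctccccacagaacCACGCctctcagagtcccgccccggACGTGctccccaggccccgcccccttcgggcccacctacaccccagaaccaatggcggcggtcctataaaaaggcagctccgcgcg
Hk2 (chr6:82774405-82774704, minus strand): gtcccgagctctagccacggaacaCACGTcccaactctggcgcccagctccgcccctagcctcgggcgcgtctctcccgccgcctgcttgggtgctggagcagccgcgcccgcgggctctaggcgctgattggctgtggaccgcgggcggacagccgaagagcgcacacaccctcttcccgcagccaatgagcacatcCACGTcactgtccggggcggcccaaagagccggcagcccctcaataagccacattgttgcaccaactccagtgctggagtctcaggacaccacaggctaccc
Pgk1 (chrX:106186850-106187149, plus strand): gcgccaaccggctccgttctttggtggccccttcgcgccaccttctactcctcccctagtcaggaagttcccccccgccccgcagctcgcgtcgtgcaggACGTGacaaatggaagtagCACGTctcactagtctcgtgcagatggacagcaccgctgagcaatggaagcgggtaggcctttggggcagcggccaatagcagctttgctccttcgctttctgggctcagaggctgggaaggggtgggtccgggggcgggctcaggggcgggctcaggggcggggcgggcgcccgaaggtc
Slc16a1 (chr3:104638414-104638713, plus strand): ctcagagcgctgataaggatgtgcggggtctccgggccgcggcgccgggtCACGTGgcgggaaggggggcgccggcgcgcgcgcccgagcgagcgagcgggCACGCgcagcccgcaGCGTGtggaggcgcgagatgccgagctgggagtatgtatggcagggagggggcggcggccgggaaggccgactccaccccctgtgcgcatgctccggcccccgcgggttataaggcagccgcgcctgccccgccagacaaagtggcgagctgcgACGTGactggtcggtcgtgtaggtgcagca
In the promoter printed for Slc2a1, the glucose carrier found in most cells, ACGTG and GCGTG occurred 1 time each. Pfkfb3, which makes the activator of phosphofructokinase, had 1 ACGTG in the promoter printed. The window of another RefSeq start of this gene, chr2:11502041-11502340, is not printed. It held 2 ACGTG, from a CACGTG read once on each strand, and 2 GCGTG. Slc2a6, a carrier of the lysosome membrane, had 4 GCGTG and 0 ACGTG. Slc16a1, the lactate carrier MCT1, had 3 ACGTG, a count in which the palindrome CACGTG is read once on each strand at an overlapping position. Of 50 promoters of 35 of the named genes, 54% held ACGTG on either strand, beside 19.6% of all 32851 promoters in the table. GCGTG was present in 58% beside 32.4%, and an NF-κB-type motif of 3 G, any 5 bases and 2 C was present in 78% beside 50.8%. These counts describe the letters of the windows.

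With R848, the glucose carrier genes Slc2a1 and Slc2a6 and the early glycolytic genes Hk2, Pfkl and Pfkfb3 rose in both genotypes, together with Hif1a, Ndrg1 and the lactate exporter gene Slc16a3. In knockout cells 10 of the 31 genes were higher with R848 than with saline and 6 were lower (limma, adjusted p below 0.05), where 15.6% of all tested genes were higher and 26% lower. In wild-type cells 10 were higher and 7 lower, where 14.6% of all tested genes were higher and 23.6% lower. In both genotypes 9 genes were called higher (12.4% of all tested genes) and 5 lower (21%). The median difference of the 31 genes was 0.07 in knockout and 0.04 in wild-type cells, beside -0.03 in knockout and -0.02 in wild-type cells over all tested genes. The log2 difference had the same sign in both genotypes for all 31 genes, as it had for 81.4% of all tested genes. In these bulk samples a change in the share of a cell type and a change in RNA per cell cannot be told apart.

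Among the glucose carriers, Slc2a6 and Slc2a1 rose and Slc2a3 did not pass the test. Slc2a6 had values of 9.82, 9.92 and 10.00 with R848 and 7.26, 7.21 and 7.16 with saline in knockout cells. In wild-type cells Slc2a6 had 9.59, 9.70 and 9.76 with R848 and 6.58, 7.02 and 6.85 with saline. Arrays with R848 lay far above those with saline and the groups did not overlap. The log2 difference of Slc2a6 was 2.70 ± 0.10 (SE, 6.51-fold, limma adjusted p = 1.99e-11) in knockout and 2.87 ± 0.10 (7.29-fold, adjusted p = 1.35e-11) in wild-type cells. Slc2a1 had 9.77, 9.81 and 9.77 with R848 and 8.08, 8.23 and 8.21 with saline in knockout cells. In wild-type cells Slc2a1 had 9.97, 9.91 and 10.06 with R848 and 8.87, 8.59 and 8.77 with saline. Every array with R848 again exceeded every array with saline, and the 3 knockout saline arrays were the lowest of the 12. Slc2a1 rose 3.05-fold in knockout cells (log2 difference 1.61 ± 0.08, adjusted p = 6.86e-10) and 2.36-fold in wild-type cells (1.24 ± 0.08, adjusted p = 1.45e-08). A second, dimmer row of Slc2a1, with a mean of 4.89, differed by 0.44 in knockout and 0.18 in wild-type cells. Slc2a3, a high-affinity carrier, averaged 4.25 ± 0.09 with R848 and 4.53 ± 0.15 with saline in knockout cells and 4.35 ± 0.36 with R848 and 4.57 ± 0.13 with saline in wild-type cells (SD, n = 3), and neither difference passed the test. Same-numbered knockout arrays deviated together, and with the replicate number as a block the knockout difference of -0.28 in Slc2a3 passed (adjusted p = 0.0411).

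**Figure D1:**
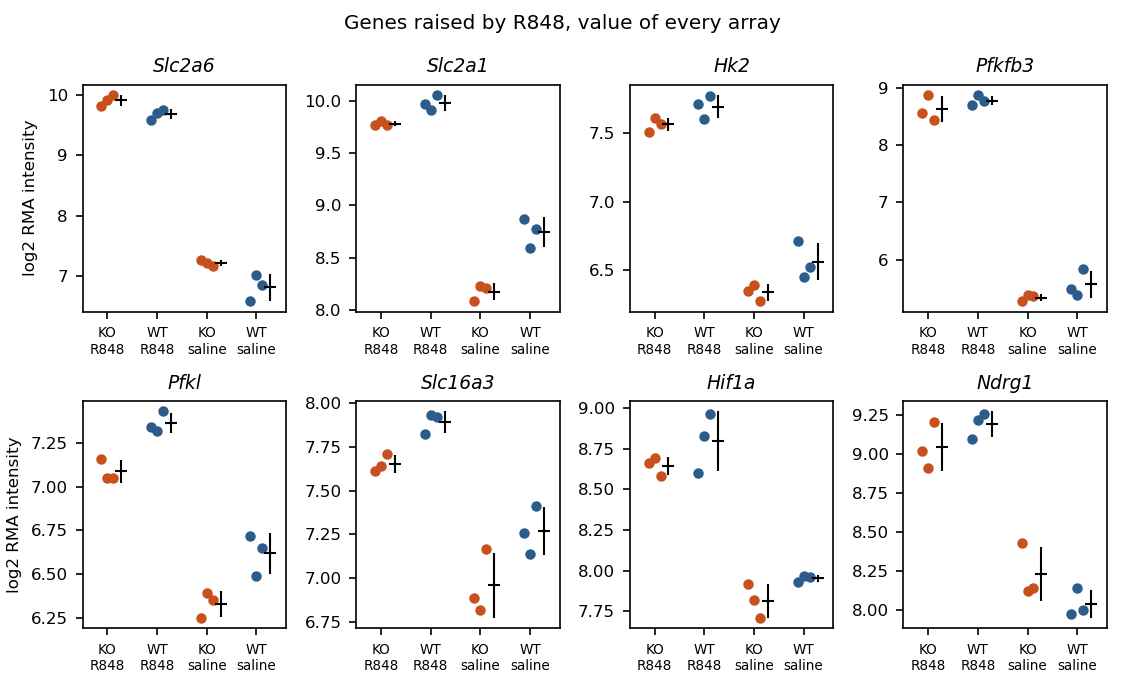
Log2 RMA intensity (vertical axis, a separate range for each gene) of 8 genes that R848 raised, in knockout (orange) and wild-type (blue) cells with R848 and with saline. Each point is an array and the bars are the mean and SD of 3 arrays. In all 8 panels every R848 array lies above every saline array, with the widest gap for Pfkfb3, whose R848 arrays lie between 8.44 and 8.88 and whose saline arrays lie between 5.27 and 5.84.

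Of the hexokinases, which phosphorylate incoming glucose, Hk2, the inducible form, rose, while Hk1 and Hk3 did not pass the test. Hk2 had 7.51, 7.61 and 7.57 with R848 and 6.35, 6.39 and 6.27 with saline in knockout cells, and 7.71, 7.60 and 7.77 against 6.71, 6.45 and 6.52 in wild-type cells. The R848 and saline arrays did not overlap. The increase of Hk2 was 1.23 ± 0.08 in knockout (2.34-fold, adjusted p = 1.31e-08) and 1.13 ± 0.08 in wild-type cells (2.19-fold, adjusted p = 3.6e-08). Hk1, the constitutive form, averaged 6.96 ± 0.11 with R848 and 7.15 ± 0.12 with saline in knockout cells and 7.12 ± 0.06 with R848 and 7.30 ± 0.01 with saline in wild-type cells. Hk3, the hexokinase typical of myeloid cells, averaged 8.35 ± 0.21 with R848 and 8.58 ± 0.25 with saline in knockout cells and 8.40 ± 0.15 with R848 and 8.55 ± 0.11 with saline in wild-type cells.

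At the phosphofructokinase step the genes moved in opposite directions. Pfkfb3 had the largest R848 response of the 31 genes. Its values were 8.57, 8.88 and 8.44 with R848 and 5.27, 5.38 and 5.36 with saline in knockout cells, and 8.70, 8.87 and 8.77 against 5.48, 5.39 and 5.84 in wild-type cells. The gap between treatments far exceeded the spread within any group. The log2 difference of Pfkfb3 was 3.29 ± 0.12 in knockout (9.80-fold, adjusted p = 1.99e-11) and 3.21 ± 0.12 in wild-type cells (9.25-fold, adjusted p = 2.76e-11). Pfkl, the liver-type phosphofructokinase subunit, had 7.16, 7.05 and 7.05 with R848 and 6.25, 6.39 and 6.35 with saline in knockout cells, and 7.34, 7.32 and 7.43 against 6.72, 6.49 and 6.65 in wild-type cells. Pfkl rose without overlap by 0.76 ± 0.08 in knockout (adjusted p = 1.66e-06) and 0.74 ± 0.08 in wild-type cells (adjusted p = 2.18e-06). The muscle-type subunit gene Pfkm fell by 0.69 in knockout (adjusted p = 9.84e-05) and by 0.55 in wild-type cells (adjusted p = 0.000722). Pfkfb4, the testis-type relative of Pfkfb3, fell by 0.64 in knockout (adjusted p = 4e-05) and by 0.30 in wild-type cells (adjusted p = 0.0152), where it was lost without saline replicate 3 (0.0545) or R848 replicate 2 (0.0857). The platelet-type subunit gene Pfkp rose by 0.35 in knockout cells (adjusted p = 0.00269), and in wild-type cells its difference of 0.09 did not pass the test.

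None of the 7 tested genes of lower glycolysis was called higher with R848, and 3 in knockout and 2 in wild-type cells were called lower. Over all tested genes 15.6% were called higher and 26% lower in knockout cells, and 14.6% higher and 23.6% lower in wild-type cells. Tpi1, the triose phosphate isomerase gene, had a difference of -0.32 in both knockout (adjusted p = 0.0407) and wild-type cells (adjusted p = 0.0482), and Aldoc, an aldolase gene, differed by -0.30 in knockout (adjusted p = 0.00677) and -0.32 in wild-type cells (adjusted p = 0.0044). Pkm, the pyruvate kinase gene, had 10.75, 10.77 and 10.77 with R848 and 11.07, 10.96 and 11.11 with saline in knockout cells, and 11.15, 11.04 and 11.09 against 11.27, 11.24 and 11.26 in wild-type cells. R848 arrays of Pkm lay below saline arrays in both genotypes, and its difference of -0.28 passed in knockout (adjusted p = 0.0032), while that of -0.16 in wild-type cells did not (adjusted p = 0.0717, and 0.0463 with arrays of the same genotype and number treated as correlated pairs). Gapdh, the dehydrogenase often used as a reference transcript, had 11.89, 11.82 and 11.90 with R848 and 11.88, 11.90 and 11.94 with saline in knockout cells, and 12, 11.97 and 12.03 against 11.99, 11.99 and 12.03 in wild-type cells. R848 and saline arrays of Gapdh overlapped in both genotypes. Gapdh has many near-identical pseudogenes, so its probes may read more than this gene. Pgk1, Pgam1 and Eno2, which carry out steps between Gapdh and Pkm, had differences between 0.03 and 0.14 and did not pass. A second, dimmer row of Pgam1, with a mean of 6.48, differed by 0.14 in knockout and 0.32 in wild-type cells. In wild-type cells Pgam1 passed as higher under 2 of 22 alternatives. The small falls given above depended on the scaling. With each array centred on the median of the tested genes, which moved the median R848 difference of all tested genes to 0.12 in knockout and 0.11 in wild-type cells, 14 of the 31 genes were called higher and 2 lower in knockout cells and 13 higher and 1 lower in wild-type cells. Under that centring 31.3% of all tested genes were called higher and 17.9% lower in knockout cells, and 27.1% higher and 16.5% lower in wild-type cells. With cyclic loess the split was 12 higher and 4 lower in knockout (19.6% and 21.9% of all tested genes) and 10 higher and 2 lower in wild-type cells (17.5% and 20.6%). With the tested genes centred, Pfkm was the gene still lower in wild-type cells. Leaving out wild-type R848 replicate 2 gave 9 higher and 2 lower in wild-type cells (12.8% and 21% of all tested genes). The call of Tpi1 was lost in wild-type cells when any of 9 of the 12 arrays was left out, among them all 6 wild-type arrays, and in knockout cells for 5 of the 12.

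**Figure D2:**
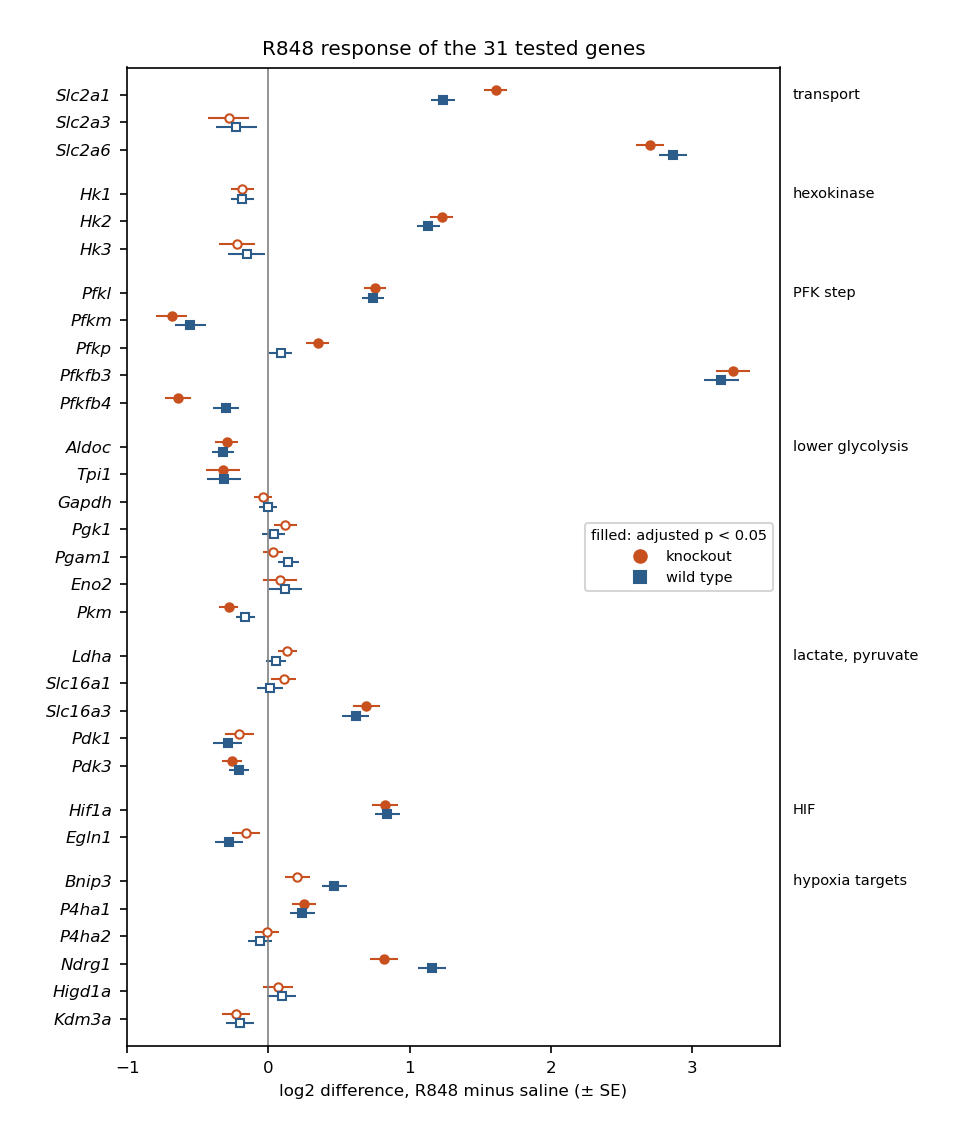
Log2 difference of R848 over saline (horizontal axis, ± SE from limma) for the 31 tested genes, in knockout (orange) and wild-type (blue) cells, grouped by role. Filled symbols have an adjusted p below 0.05, and the responses above 1 in both genotypes are those of Slc2a1, Slc2a6, Hk2 and Pfkfb3.

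Among the genes for pyruvate and lactate, Slc16a3, which encodes the lactate exporter MCT4, rose by 0.69 in knockout (adjusted p = 3.09e-05) and 0.62 in wild-type cells (adjusted p = 9.69e-05). Slc16a3 had 7.61, 7.64 and 7.71 with R848 and 6.89, 6.82 and 7.17 with saline in knockout cells, and 7.82, 7.93 and 7.92 against 7.26, 7.14 and 7.41 in wild-type cells, without overlap. Ldha, the lactate dehydrogenase subunit that favours lactate, had 6.97, 6.92 and 6.87 with R848 and 6.78, 6.82 and 6.76 with saline in knockout cells, and 7.03, 7.17 and 7.08 against 7.10, 7.0 and 7.02 in wild-type cells. Its R848 arrays lay above its saline arrays in knockout cells and overlapped them in wild-type cells, and neither difference passed. Ldha passed as higher under 2 of 22 alternatives in knockout and 1 of 22 in wild-type cells. The gene of the pyruvate dehydrogenase kinase Pdk3 fell by 0.26 in knockout (adjusted p = 0.008) and by 0.21 in wild-type cells (adjusted p = 0.0315). Pdk1, a kinase of the same family, fell by 0.29 in wild-type cells (adjusted p = 0.0341). In wild-type cells the calls of Pdk1 and Pdk3 were each lost when any of 5 arrays was left out, namely the 3 saline arrays and R848 replicates 2 and 3. Both were also lost under 3 of the 10 alternatives that kept every array of the groups compared. The knockout call of Pdk3 was lost under 2 of those 10. In knockout cells Pdk1 averaged 6.81 ± 0.22 with R848 and 7.01 ± 0.13 with saline, which did not pass.

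Hif1a had 8.66, 8.69 and 8.58 with R848 and 7.92, 7.82 and 7.71 with saline in knockout cells, and 8.60, 8.83 and 8.96 against 7.93, 7.97 and 7.96 in wild-type cells. All 6 R848 arrays lay above all 6 saline arrays. The rise was 0.83 ± 0.09 in knockout (adjusted p = 2.84e-06) and 0.84 ± 0.09 in wild-type cells (adjusted p = 2.57e-06). A second row of Hif1a differed by 0.35 in knockout and 0.50 in wild-type cells. The prolyl hydroxylase gene Egln1, which encodes the main oxygen sensor that acts on Hif1a protein, fell by 0.28 in wild-type cells (adjusted p = 0.0357), and its difference of -0.16 in knockout cells did not pass. The wild-type call of Egln1 was lost without saline replicate 1 or 2 or R848 replicate 2 or 3 (adjusted p 0.0998 to 0.119). It was also lost under 2 of the 10 alternatives that kept every array of the groups compared.

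Of 6 tested genes of the low-oxygen response, 2 in knockout and 3 in wild-type cells rose and 0 fell. Over all tested genes 15.6% rose and 26% fell in knockout cells, and 14.6% rose and 23.6% fell in wild-type cells. Ndrg1, a stress-responsive gene, had 9.02, 8.91 and 9.21 with R848 and 8.43, 8.12 and 8.14 with saline in knockout cells, and 9.10, 9.22 and 9.26 against 7.97, 8.14 and 8.0 in wild-type cells. The treatments did not overlap, and Ndrg1 rose by 0.82 ± 0.10 in knockout (adjusted p = 9.57e-06) and 1.16 ± 0.10 in wild-type cells (2.23-fold, adjusted p = 2.76e-07). Its second row differed by 0.28 in knockout and 0.58 in wild-type cells. P4ha1, a collagen prolyl hydroxylase subunit gene, rose by 0.25 in knockout (adjusted p = 0.0301) and 0.24 in wild-type cells (adjusted p = 0.0394). The call of P4ha1 was lost in wild-type cells when any of the 6 wild-type arrays was left out (adjusted p 0.0568 to 0.136). In knockout cells it was lost without saline replicate 1 or R848 replicate 2 or 3 (0.0729 to 0.152), and when the 6 knockout arrays were fitted alone. Bnip3, a mitophagy receptor gene, rose by 0.47 in wild-type cells (adjusted p = 0.000666). In knockout cells its difference of 0.20 did not pass (adjusted p = 0.0855), but it passed under 3 of 22 alternatives. P4ha2, Higd1a and the histone demethylase gene Kdm3a passed in neither genotype. Ero1a, the oxidase that drives disulfide formation in the endoplasmic reticulum, had 8.92, 8.95 and 8.95 with R848 and 8.07, 8.23 and 8.21 with saline in knockout cells, and 8.93, 9.32 and 9.17 against 8.01, 8.13 and 8.42 in wild-type cells. Ero1a rose without overlap by 0.77 in knockout (adjusted p = 4.39e-05) and 0.95 in wild-type cells (adjusted p = 5.73e-06).

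The size of the R848 response could not be told apart between genotypes for any of the 31 genes. In the test of the difference between the responses 0 of 31 passed (0.0142% of all tested genes passed) and 4 had an unadjusted limma p below 0.05, as 4.93% of all tested genes had. The differences of response, knockout minus wild type, ranged from -0.34 for Ndrg1 to 0.37 for Slc2a1, and the adjusted p of Slc2a1 was 0.965. The other genes under an unadjusted 0.05 were Pfkp, with a difference of 0.26, and Pfkfb4, with -0.34.

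With saline, most of the genes were lower in knockout than in wild-type cells, by small amounts, and 3 passed the test, all of them lower in the knockout (0.192% of all tested genes were called lower). These were Slc2a1, Slc16a1 and Pgk1. In all, 25 of 31 differences were below 0, as were 54.7% over all tested genes. Their median was -0.17 beside -0.01 (-0.13 beside 0.00 with cyclic loess). For 17 genes the 3 knockout arrays lay below the 3 wild-type arrays, as they did for 9.43% of all tested genes. From the values given, Slc2a1 reached at most 8.23 in knockout and at least 8.59 in wild-type cells, a difference of -0.57 ± 0.08 (limma adjusted p = 0.01). Slc16a1, which carries lactate and pyruvate across the plasma membrane, had 5.99, 6.03 and 6.09 in knockout and 6.56, 6.40 and 6.55 in wild-type cells, a difference of -0.47 ± 0.09 (adjusted p = 0.0461). Pgk1, the phosphoglycerate kinase of the first ATP-yielding step, had 10.17, 10.03 and 10.19 in knockout and 10.56, 10.45 and 10.71 in wild-type cells, a difference of -0.44 ± 0.08 (adjusted p = 0.034). The knockout arrays of each were the lower ones without overlap. These calls lay near the threshold. Without wild-type saline replicate 3 none of the 3 passed, and the same was so when the 6 saline arrays were fitted alone. Without wild-type saline replicate 1, wild-type R848 replicate 2 or 3, or knockout saline replicate 1 or 2, 1 of the 3 passed. With each of the 12 arrays left out in turn, Slc16a1 lost its call for 10, Pgk1 for 6 and Slc2a1 for 1. The dimmer row of Slc2a1 differed by -0.20.

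**Figure D3:**
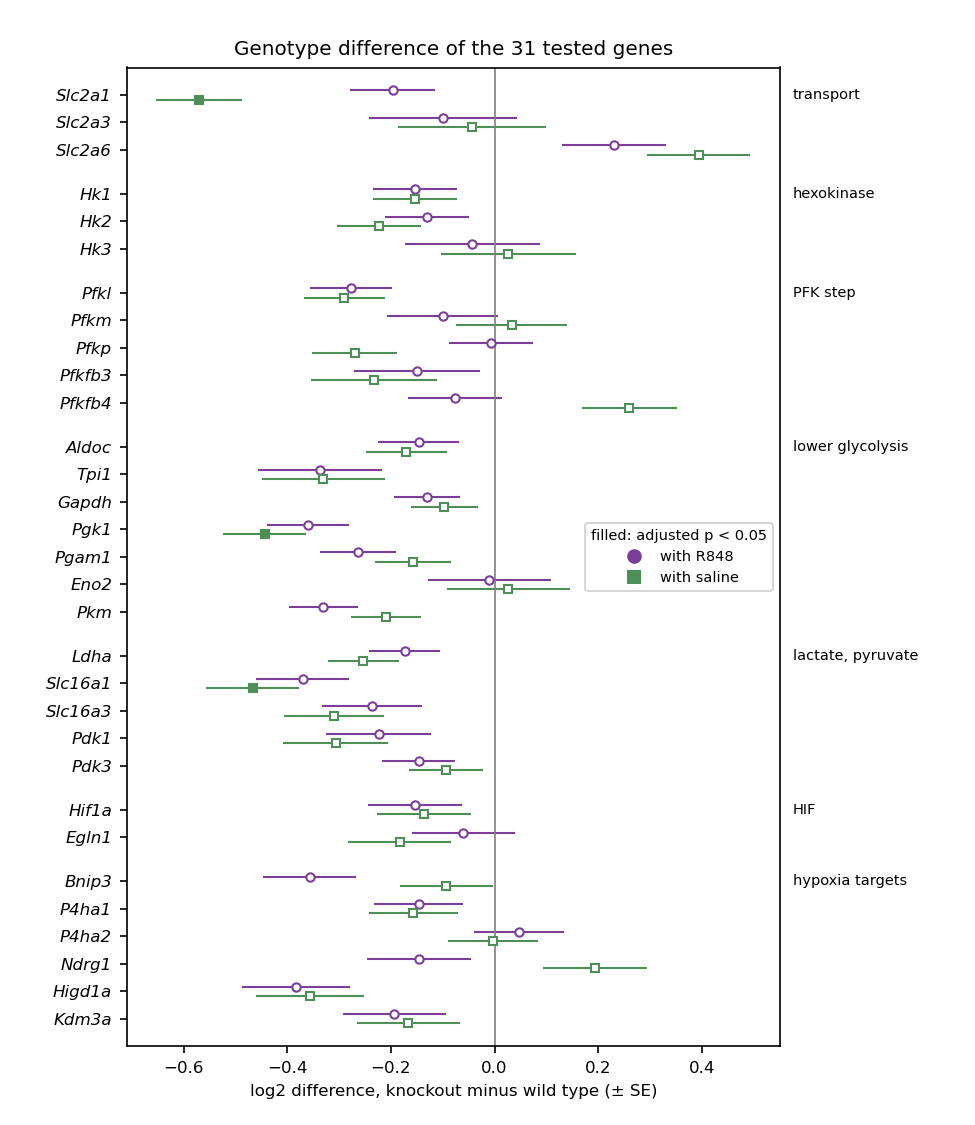
Log2 difference of knockout over wild type (horizontal axis, ± SE from limma) for the 31 tested genes, with R848 (circles) and with saline (squares). Filled symbols have an adjusted p below 0.05. Differences below 0 are lower in the knockout, which holds for 29 of 31 genes with R848 and 25 of 31 with saline.

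With R848, 0 of the 31 genes passed between genotypes (limma; 0.135% of all tested genes passed) and 13 had an unadjusted p below 0.05, as 8.74% of all tested genes had. With an intensity trend and robust spread 1 gene, Pkm, passed. The differences were below 0 for 29 of 31 genes, beside 58.3% of all tested genes. Their median was -0.15 beside -0.02 (-0.10 beside 0.00 with cyclic loess). For 14 genes the 3 knockout arrays lay below the 3 wild-type arrays (8.46% of all tested genes). Pkm, whose R848 values given above lie apart, differed by -0.33 (adjusted p = 0.0968). Pgk1 had 10.25, 10.25 and 10.25 in knockout and 10.55, 10.60 and 10.68 in wild-type cells, a difference of -0.36 (adjusted p = 0.159). Slc16a1 had 6.04, 6.06 and 6.33 in knockout and 6.63, 6.46 and 6.45 in wild-type cells, a difference of -0.37 (adjusted p = 0.194). For Slc16a1 too the groups did not overlap.

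Counting the treatments together, 24 genes were lower in the knockout both with R848 and with saline, as were 37.1% of all tested genes, and for 10 of them the knockout arrays lay apart below in both, as for 2.01% of all tested genes. These were Slc2a1, Pfkl, Tpi1, Gapdh, Pgk1, Pgam1, Pkm, Ldha, Slc16a1 and P4ha1, of which 5, from Tpi1 to Pkm, are enzymes of lower glycolysis. With the genotype difference averaged over treatments, 7 genes were lower in the knockout (1.01% of all tested genes) and 1 was higher (0.774%). Slc16a1 was lower by a difference of -0.42 ± 0.06 (limma adjusted p = 0.0069), Pgk1 by -0.40 ± 0.06 (adjusted p = 0.00421) and Slc2a1 by -0.38 ± 0.06 (adjusted p = 0.0069). Higd1a, which encodes a mitochondrial protein induced by low oxygen, had 4.61, 4.69 and 4.72 in knockout and 4.94, 5.13 and 5.10 in wild-type cells with R848, and 4.53, 4.47 and 4.82 against 4.77, 5.05 and 5.07 with saline. Its groups overlapped with saline only, and the averaged difference was -0.37 ± 0.07 (adjusted p = 0.0245). Pfkl differed by -0.28 ± 0.06 (adjusted p = 0.023), Pkm by -0.27 ± 0.05 (adjusted p = 0.0159) and Ldha by -0.21 ± 0.05 (adjusted p = 0.0395). Slc2a6 went the other way, higher in the knockout by 0.31 ± 0.07 (adjusted p = 0.0386), with knockout arrays above wild-type arrays in each treatment. Tpi1 (-0.33, adjusted p = 0.0596), Pgam1 (-0.21, adjusted p = 0.0548) and Slc16a3 (-0.27, adjusted p = 0.0561) did not pass. Of 21 alternatives, Pgam1 passed under 6, Tpi1 under 5 and Slc16a3 under 4. The second, dimmer row of Pgam1 had an averaged difference of -0.37, with -0.46 with R848 and -0.28 with saline. That of Slc2a1 had an averaged difference of -0.07, with 0.06 with R848 and -0.20 with saline.

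**Figure D4:**
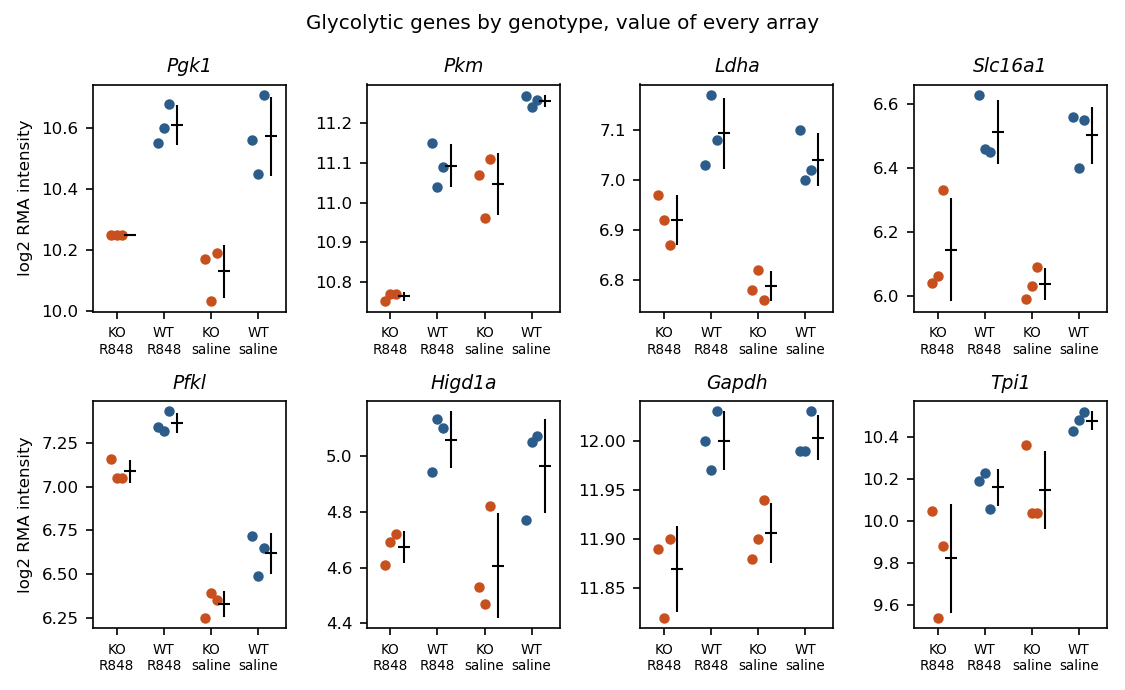
Log2 RMA intensity (vertical axis, a separate range for each gene) of 8 genes in the comparison of genotypes, in knockout (orange) and wild-type (blue) cells with R848 and with saline. Each point is an array and the bars are the mean and SD of 3 arrays. For Pgk1 all 6 knockout arrays lie between 10.03 and 10.25 and all 6 wild-type arrays between 10.45 and 10.71.

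The averaged calls differed in how far they rested on the arrays. Pgk1, Pkm and Slc16a1 passed under every alternative run. The call of Slc2a1 was lost when all rows of the gene were averaged (difference -0.23, adjusted p = 0.0605). Ldha lost its call when any of the 12 arrays was left out, Slc2a6 for 10 of them, Higd1a for 7, and Pfkl without wild-type saline replicate 3, wild-type R848 replicate 2 or 3, or knockout R848 replicate 2. With arrays of the same genotype and number treated as correlated pairs, Ldha (adjusted p = 0.0836) and Slc2a6 (adjusted p = 0.0729) did not pass. Markers of other cells were compared as the mean log2 level of each list. With saline the mean of the 6 dendritic-cell markers with a row, 4 of which were tested, lay between 5.20 and 5.32 in knockout and between 5.03 and 5.18 in wild-type cells, and that of the 8 macrophage markers lay between 10.67 and 10.75 in knockout and between 10.55 and 10.65 in wild-type cells. Lists for neutrophils, lymphocytes, red-cell precursors and fibroblasts had 3 of 8, 2 of 8, 1 of 5 and 3 of 5 markers past the dim-signal filter. With R848 the mean of the 8 neutrophil markers lay between 4.02 and 4.06 in knockout and between 3.90 and 4.0 in wild-type cells, and that of the 7 lymphocyte markers with a row lay between 4.16 and 4.21 in knockout and between 4.10 and 4.14 in wild-type cells. These 4 pairs of ranges did not overlap, while every other pair of these lists, with saline or with R848, overlapped or met. With saline the neutrophil mean lay between 3.91 and 3.97 in knockout and between 3.87 and 3.97 in wild-type cells. The neutrophil and lymphocyte means include the markers that did not pass the filter. No marker passed between genotypes with R848 or with saline, and averaged over treatments the neutrophil gene S100a9 was higher in the knockout by 0.29 (limma adjusted p = 0.0375). The part of these markers in the genotype differences was not tested.

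Genes of the same and neighbouring pathways that are not among the 38 are given as counts. Beside them, 15.6% of all tested genes rose and 26% fell in knockout cells, and 14.6% rose and 23.6% fell in wild-type cells. Of 12 further glycolytic isozymes and carriers tested, 0 rose with R848 in either genotype and 4 fell in knockout and 5 in wild-type cells. The median of this list was -0.06 in knockout and -0.16 in wild-type cells, and Pfkfb2, the heart-type relative of Pfkfb3, fell by 0.73 in both. Of 9 other genes of the HIF system, 2 rose in knockout and 4 in wild-type cells and 0 fell, with medians of 0.16 in knockout and 0.20 in wild-type cells. They included Siah2, a ubiquitin ligase that targets prolyl hydroxylases, at 0.90 in knockout and 0.78 in wild-type cells, and Egln2, a prolyl hydroxylase, at 0.87 in knockout and 0.76 in wild-type cells. Of 15 other genes known to be induced by low oxygen, 3 rose and 8 fell in knockout and 4 rose and 5 fell in wild-type cells, with medians of -0.24 in knockout and -0.08 in wild-type cells. The peptide hormone gene Adm rose by 2.19 in knockout and 2.01 in wild-type cells, whereas Vegfa, the vascular growth factor gene, fell by 0.87 in knockout and by 1.13 in wild-type cells. Genes of the low-oxygen response thus moved in both directions.

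Around pyruvate, 2 of 10 genes of the pyruvate dehydrogenase system rose and 3 fell in each genotype, with medians of 0.00 in knockout and -0.06 in wild-type cells. The shares over all tested genes, 15.6% higher and 26% lower in knockout and 14.6% and 23.6% in wild-type cells, apply to these lists too. Pdpr and Pdp1, subunits of the phosphatase that switches the enzyme on, fell by 1.12 and 0.85 in knockout and by 0.99 and 0.75 in wild-type cells. Pdk2, the gene of an opposing kinase, was lower with R848 too, without overlap. It averaged 4.94 with R848 and 6.02 with saline in knockout cells, and 5.09 with R848 and 5.74 with saline in wild-type cells. Of 16 TCA cycle genes, 1 rose and 7 fell in knockout and 0 rose and 6 fell in wild-type cells, with medians of -0.12 in knockout and -0.15 in wild-type cells. Idh2, the mitochondrial isocitrate dehydrogenase gene, fell by 0.58 in knockout and by 0.52 in wild-type cells. Of 8 genes of glycogen handling and gluconeogenesis, 6 fell in each genotype, among them the glycogen phosphorylase gene Pygb, by 0.85 in knockout and by 0.95 in wild-type cells. Of 7 pentose phosphate pathway genes, 2 fell in knockout and 1 in wild-type cells. Centring each array on the tested genes turned the shares over all tested genes to the higher side. They became 31.3% higher and 17.9% lower in knockout and 27.1% higher and 16.5% lower in wild-type cells. The TCA cycle counts then became 3 higher and 2 lower in knockout and 2 higher and 4 lower in wild-type cells. Those of glycogen and gluconeogenesis became 4 lower in each genotype. With that centring 4 of the 12 further glycolytic genes were higher and 3 lower in knockout cells. Between genotypes, averaged over treatments, Mif, Gys1 and Pdgfb, 3 of the 15 other low-oxygen genes, were lower in the knockout. So was Gbe1, 1 of the 8 genes of glycogen handling and gluconeogenesis, and no gene of the other neighbouring lists passed. Over all tested genes 1.01% were called lower. How far the differences of these 4 genes rest on single arrays was not examined. Mif, a cytokine gene also induced by low oxygen, had the largest of these differences, at -0.46 (limma adjusted p = 0.00834). The difference was -0.32 for the glycogen branching enzyme gene Gbe1 (adjusted p = 0.0402) and -0.28 for the glycogen synthase gene Gys1 (adjusted p = 0.0204). Averaged over treatments, genotype differences of 26 of the 31 genes were below 0 (median -0.16), beside 57.3% of all tested genes (-0.02). So were 15 of 16 TCA cycle genes (-0.12), 7 of 7 pentose phosphate genes (-0.12) and 10 of 15 other low-oxygen genes (-0.14). The count was 9 of 12 for further glycolytic genes (-0.04) and 4 of 9 for other HIF-system genes (0.03). It was 6 of 8 for glycogen and gluconeogenesis (-0.08) and 6 of 10 for pyruvate dehydrogenase (-0.06).

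**Figure D5:**
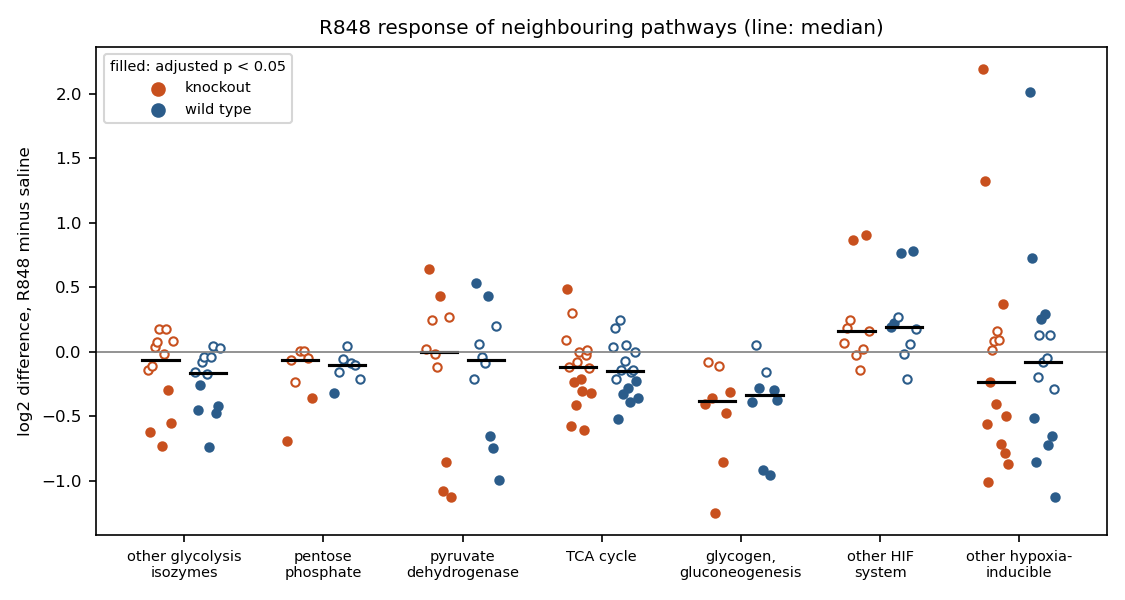
Log2 difference of R848 over saline (vertical axis) in knockout (orange) and wild-type (blue) cells for the tested genes of 7 neighbouring lists (horizontal axis), with a point for each gene, filled where the adjusted p is below 0.05, and a black line at the list median. Adm stands highest, at 2.19 in knockout and 2.01 in wild-type cells, and 6 of 8 glycogen and gluconeogenesis genes are filled and below 0 in each genotype. Over all tested genes 26% in knockout and 23.6% in wild-type cells were called lower.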

How the data were processed

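The arrays were hybridized with amplified, biotin-labelled RNA, per the labels' protocols. The deposited values are log2 intensities that the authors made with Affymetrix Expression Console and RMA, per the submitters' processing notes, with versions not given in the sources used here. RMA equalizes the arrays' distributions, so a change in total RNA per cell is not visible, and it compresses dim differences. Strip and scan batches were not analysed here.

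Rows with exactly 1 gene symbol were used. A gene was tested if it exceeded the 40th percentile of each array, 4.31 to 4.35, on at least 3 arrays. All 12 arrays entered 1 model with a mean per group (limma 3.58.1, R 4.3.3, lmFit and eBayes), after the procedure was tested on simulated data. P-values were adjusted over all 14079 genes by the Benjamini-Hochberg method, passing below 0.05, and all adjusted p-values printed are from limma. Nothing in the labels tells if replicates are different mice or dishes. The p-values therefore cover array-to-array spread alone, which may be technical. Same-numbered arrays had residual correlations of 0.27, 0.17 and 0.28 between knockout R848 and knockout saline, above the minimum of 0.1, and the labels name no such pairing. With the number as a block, Slc2a3 passed in knockout cells with R848 (adjusted p = 0.0411).

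The 38 genes and all lists were chosen with earlier results of these data known. Values of every array are given for genes past the threshold with a difference of 1 or more or between genotypes, and for Hif1a, Slc2a1, Pgk1, Hk2 and Gapdh. Slc16a3 and Ero1a were added after their values were seen. Other lists are given by up to 3 genes with large changes. Alternatives were an intensity trend with robust spread, other filters, median centring, cyclic loess, fitting only the arrays compared, fixed and random blocks, averaging a gene's rows, and omitting each array in turn. Centring on the tested genes was added after seeing the data.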

Additional observations from a re-analysis of the deposited data

How the results depend on the processing

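No difference of the 31 genes changed sign while past the threshold under any alternative. Of the R848 calls, 11 of 16 in knockout and 10 of 17 in wild-type cells passed under every alternative, as did 0 of 3 genotype calls with saline and 3 of 8 averaged over treatments. The genotype count with saline was 0 with only the arrays compared and 1 with centring on the tested genes, and with R848 it was 1 with an intensity trend. Over all genes, the count with saline, 47, was 31 without a filter, 8 with only the arrays compared and 99 with the replicate number as a block. The averaged count, 251, was 402 with that block and 118 with arrays of the same genotype and number as random pairs. The block changed no other count by over 1.5 times. Averaged over treatments, 109 of all genes were called higher and 142 lower in the knockout, and with cyclic loess 185 higher and 94 lower. Of the 31 genes, 1 was then higher and 6 lower. Same-numbered arrays of the genotypes did not all deviate together. With the number as a block, 4 further genes passed as lower in the knockout averaged over treatments, namely Tpi1 (adjusted p = 0.039), Pgam1 (0.0385), Slc16a3 (0.0244) and Pdk1 (0.0316), making 12 of 31.

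Leaving out each array in turn gave 14 to 18 called genes of the 31 for R848 in knockout (5266 to 5898 of all genes) and 11 to 17 in wild-type cells (4717 to 5417). It gave 0 to 3 between genotypes with saline (10 to 65 of all genes), 0 with R848 (13 to 25), 0 for the difference of responses (1 to 2) and 4 to 9 averaged over treatments (73 to 249). The lowest came without wild-type R848 replicate 2 for R848 in wild-type cells, with 11 genes, and without wild-type saline replicate 3 for saline. Averaged over treatments, 4 genes passed without wild-type saline replicate 3, wild-type R848 replicate 2 or 3, or knockout R848 replicate 2, and 5 without knockout saline replicate 2. The number of arrays and compression near background limit small and dim differences.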
